A study of Homo sapiens with 9 samples.

Results

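Huh-7 cells that lack vault RNA1-2 (1-2 KO) were compared directly with Huh-7 cells that lack vault RNA1-1 (1-1 KO). Huh-7 cells were established from a human liver carcinoma, and all of them were grown in the same medium to the same confluency. Each knockout was sequenced in 3 libraries, so that 6 of the 9 libraries of the study entered the comparison, and the 3 libraries of unedited cells (WT) served to tell which line departed from WT. The 1-2 KO cells were obtained with CRISPR/Cas9 from the WT cells as 1 clone after a transient selection with puromycin, whereas the 1-1 KO cells, like the WT cells, were received from another laboratory. Each knockout was thus represented by 1 line, and the missing vault RNA and the history of the line cannot be told apart. The RNA of each line was extracted in triplicate, so that the p-values measure the spread between extractions of 1 line.

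Vault RNAs are short noncoding RNAs transcribed by RNA polymerase III and were first found as parts of the vault, a large ribonucleoprotein particle built mainly from the major vault protein. Most vault RNA of a human cell is not bound to vaults, and vtRNA1-1 is known as a regulator of selective autophagy through the receptor p62. The VTRNA1 genes lie on chromosome 5 beside the clusters of the protocadherin genes. They share the start of the transcript, which holds a promoter element of RNA polymerase III inside the gene, and differ mostly in the central part. The transcripts removed in the lines are shown here because they are what sets the lines apart, as the plus strand of GRCh38 at chr5:140711275-140711373 for VTRNA1-1 and chr5:140718925-140719013 for VTRNA1-2. Capitals mark the bases that the aligned transcripts do not share.
VTRNA1-1: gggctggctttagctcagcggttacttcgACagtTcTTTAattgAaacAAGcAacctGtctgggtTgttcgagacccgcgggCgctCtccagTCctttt
VTRNA1-2: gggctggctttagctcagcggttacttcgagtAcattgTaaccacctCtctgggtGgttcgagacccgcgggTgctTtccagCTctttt
Of 99 aligned positions, 81 held the same base (81.8%), and the genes lay 7551 bases apart. The libraries themselves do not show the deletions, since they were prepared from mRNA. No library held a count of VTRNA1-2, and the only count of VTRNA1-1 came from replicate 1 of WT.

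Read counts per gene summed to between 32384469 and 41782387 per library, and 17207 of the 60664 genes in the table had enough counts to be tested. Levels are given as CPM, the counts per 1000000 counts of a library after scaling for its composition. The chi-square per degree of freedom of replicate pairs, near 1 under counting noise alone, was 2.07 to 3.46 in 1-1 KO. In WT it was higher, with 5.03, 10.4 and 6.41 for its pairs. Replicate 1 of 1-2 KO stood apart from its partners, with 15.1 and 16.1 against replicates 2 and 3, which differed from each other with 2.67. In this replicate, 36 of 10501 well expressed genes lay over 2-fold above both partners. Without it, 11112 genes differed between the knockouts, compared to 11229 with it. All 12 hepatocyte markers were detected in each line, and their summed level was 23820 to 24550 CPM in 1-1 KO, 15030 to 16530 CPM in 1-2 KO and 13870 to 14660 CPM in WT.

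The knockouts differed in 11229 of the 17207 tested genes (65.3%) at an adjusted p under 0.05, with 5689 genes higher (33.1%) and 5540 lower (32.2%) in 1-2 KO. Over all tested genes, the median log2 fold change of 1-2 KO minus 1-1 KO was 0.01 and its median size was 0.37, compared to 0.35 for 1-1 KO minus WT and 0.27 for 1-2 KO minus WT. Against WT, 63.4% of the tested genes were called in 1-1 KO and 54.4% in 1-2 KO. A difference of over 1 on the log2 scale was found for 1262 genes higher (7.33%) and 1172 genes lower (6.81%) in 1-2 KO. The libraries of the knockouts did not overlap in CPM for 12008 genes (69.8%). The share called was 71.7% of 13659 protein coding genes, 43.9% of 1811 long noncoding RNAs and 36.9% of 1567 pseudogenes, classes that also differ in their counts. The 3 comparisons share libraries, so the following counts describe the lines and are not independent of each other. Among the 11229 genes, 3560 (31.7%) differed from WT in 1-1 KO only and 2203 (19.6%) in 1-2 KO only. A further 2012 (17.9%) differed from WT in both lines in opposite directions, 2774 (24.7%) in both in the same direction and by different amounts, and 680 (6.06%) in neither line.
Among the 2434 genes with a difference of over 1 on the log2 scale, departure in opposite directions was the most frequent pattern, with 721 genes (29.6%). Of the 1262 genes much higher in 1-2 KO, 395 (31.3%) departed from WT in 1-2 KO only and 230 (18.2%) in 1-1 KO only. Of the 1172 genes much lower in 1-2 KO, 158 (13.5%) departed in 1-2 KO only and 424 (36.2%) in 1-1 KO only.

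**Figure D1:**
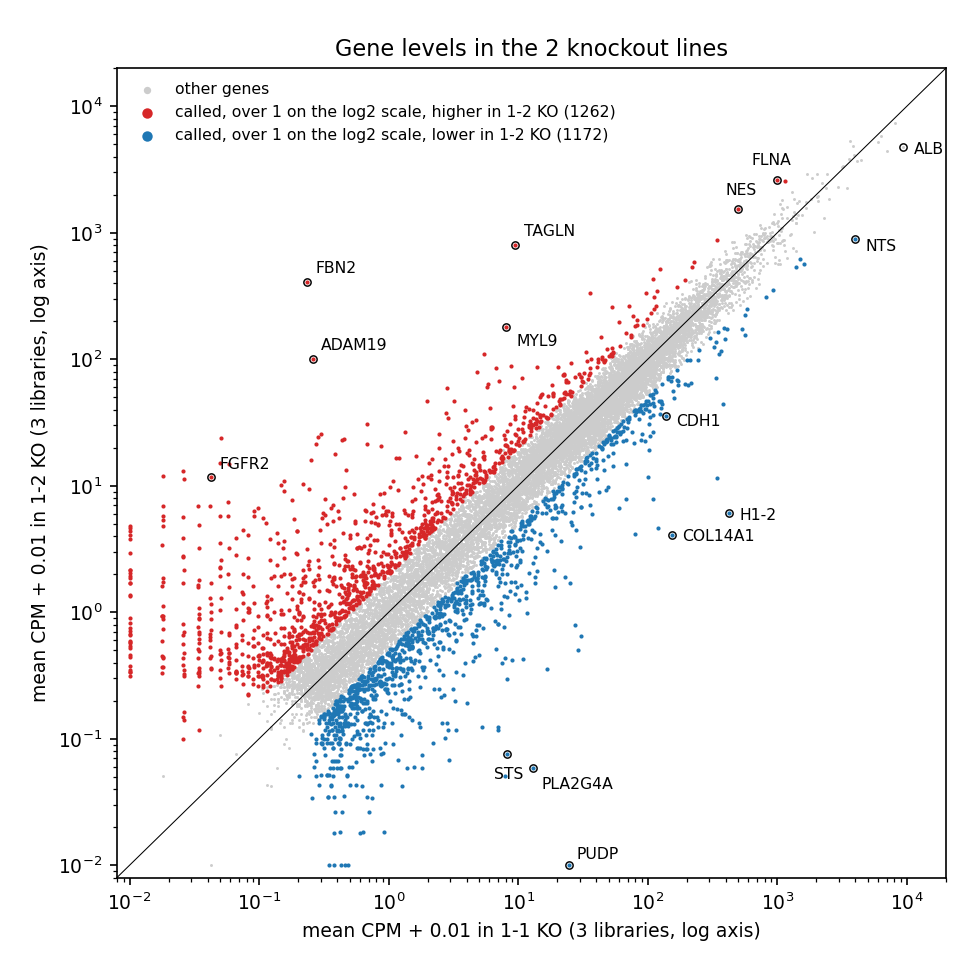
Mean level of each of the 17207 tested genes in 1-1 KO (x axis) and 1-2 KO (y axis), in CPM plus 0.01 on log axes, with 15 named genes circled. Red points are the 1262 genes called and over 1 on the log2 scale higher in 1-2 KO, blue points the 1172 lower ones, and the diagonal marks equal levels. The red genes reach further to the left edge, where 1-1 KO is at or near 0, than the blue genes reach to the lower edge.

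FBN2, which encodes the matrix protein fibrillin 2, was at 0.189, 0.268 and 0.221 CPM in the 1-1 KO libraries, 384, 427 and 424 CPM in 1-2 KO and 8.67, 10.2 and 9.26 CPM in WT. No libraries of different lines overlapped, and the level in 1-2 KO was 1824-fold that in 1-1 KO (log2 fold change 10.81, adjusted p = 3.65e-17). The 1-1 KO libraries held only 8, 11 and 9 counts of FBN2, so that counting error limits the precision of this ratio. ADAM19, a membrane-bound metalloprotease, was at 0.331, 0.146 and 0.270 CPM in 1-1 KO, 98.9, 103.8 and 100.2 CPM in 1-2 KO and 0.427, 0.267 and 0.285 CPM in WT, so that 1-2 KO stood above lines that overlapped each other. FGFR2, a receptor of fibroblast growth factors, had 0, 0 and 4 counts in 1-1 KO, 486, 452 and 483 counts in 1-2 KO and 0 in every WT library. The ratio of 1-2 KO over 1-1 KO was 362 (95% counting interval 141 to 1329). CNTNAP2, a neuronal adhesion protein, had 0, 4 and 1 counts in 1-1 KO and 929, 1012 and 989 counts in 1-2 KO, a ratio of 597 (95% counting interval 255 to 1839). ASXL3, a partner of a histone deubiquitinase, had 4, 4 and 3 counts in 1-1 KO, 264, 254 and 288 counts in 1-2 KO and 0 in each WT library. FGFR2, CNTNAP2 and ASXL3 were thus expressed in 1-2 KO and at or near 0 in both other lines.
ETS1, TSPAN18 and FSTL5 followed another order, with expression in WT and 1-2 KO and loss in 1-1 KO. The transcription factor ETS1 was at 2.46, 2.59 and 1.87 CPM in WT, 0.0709, 0 and 0.0490 CPM in 1-1 KO and 16.1, 15.9 and 13.6 CPM in 1-2 KO. TSPAN18, a tetraspanin, was at 6.51, 6.53 and 7.51 CPM in WT and 11.8, 11.8 and 12.1 CPM in 1-2 KO, and the 1-1 KO libraries held 1 count in all. FSTL5 was at 1.26, 1.07 and 1.24 CPM in WT and 10.47, 11.9 and 11.4 CPM in 1-2 KO, with 0, 0 and 2 counts in 1-1 KO. The 10 largest rises were ranked with genes at the floor taken at their bound, which sets such genes lower than their ratio of counts would. The others among them were BCHE, a secreted cholinesterase, at 14.7 ± 0.922 CPM in 1-2 KO and 0.0482 ± 0.0242 CPM in 1-1 KO (± SD, n = 3 for all such values), the ephrin receptor EPHA7 at 12.98 ± 0.767 CPM with 2 counts over the 3 libraries of 1-1 KO, and PNMA3 at 7.39 ± 0.190 CPM compared to 0.0475 ± 0.0624 CPM.
PUDP, a pseudouridine phosphatase, had 0 counts in all WT and all 1-2 KO libraries and 1078, 1023 and 946 counts in the 1-1 KO libraries, so that it was at least 332-fold lower in 1-2 KO against a floor of 3 counts per library. PLA2G4A, the cytosolic phospholipase A2 that releases arachidonic acid, was at 3.19, 3.20 and 2.95 CPM in WT, 13.1, 12.4 and 13.7 CPM in 1-1 KO and 0.0712, 0.0502 and 0.0249 CPM in 1-2 KO. The lines did not overlap, 1-1 KO lay above WT and 1-2 KO below it, and the ratio of 1-1 KO over 1-2 KO was 265 (95% counting interval 122 to 724). GPR35, a G protein-coupled receptor, was at 6.95 ± 0.353 CPM in 1-1 KO, 0.113 ± 0.0663 CPM in 1-2 KO and 4.14 ± 0.647 CPM in WT. SLC6A19, a transporter of neutral amino acids, was at 16.7 ± 0.953, 0.344 ± 0.0282 and 7.13 ± 1.08 CPM in the same order. PLA2G4A, GPR35 and SLC6A19 were each higher than WT in 1-1 KO and lower in 1-2 KO. MDGA2 followed a different pattern, at 6.97 ± 0.368 CPM in 1-1 KO, 0.107 ± 0.0159 CPM in 1-2 KO and 0.110 ± 0.0207 CPM in WT. RANBP3L was at 2.89 ± 0.403 CPM in 1-1 KO and 0.0585 ± 0.0632 CPM in 1-2 KO, and the olfactory receptor pseudogene OR2W6P was at 7.96 ± 0.267 CPM in 1-1 KO with 5 counts over the 3 libraries of 1-2 KO.

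**Figure D2:**
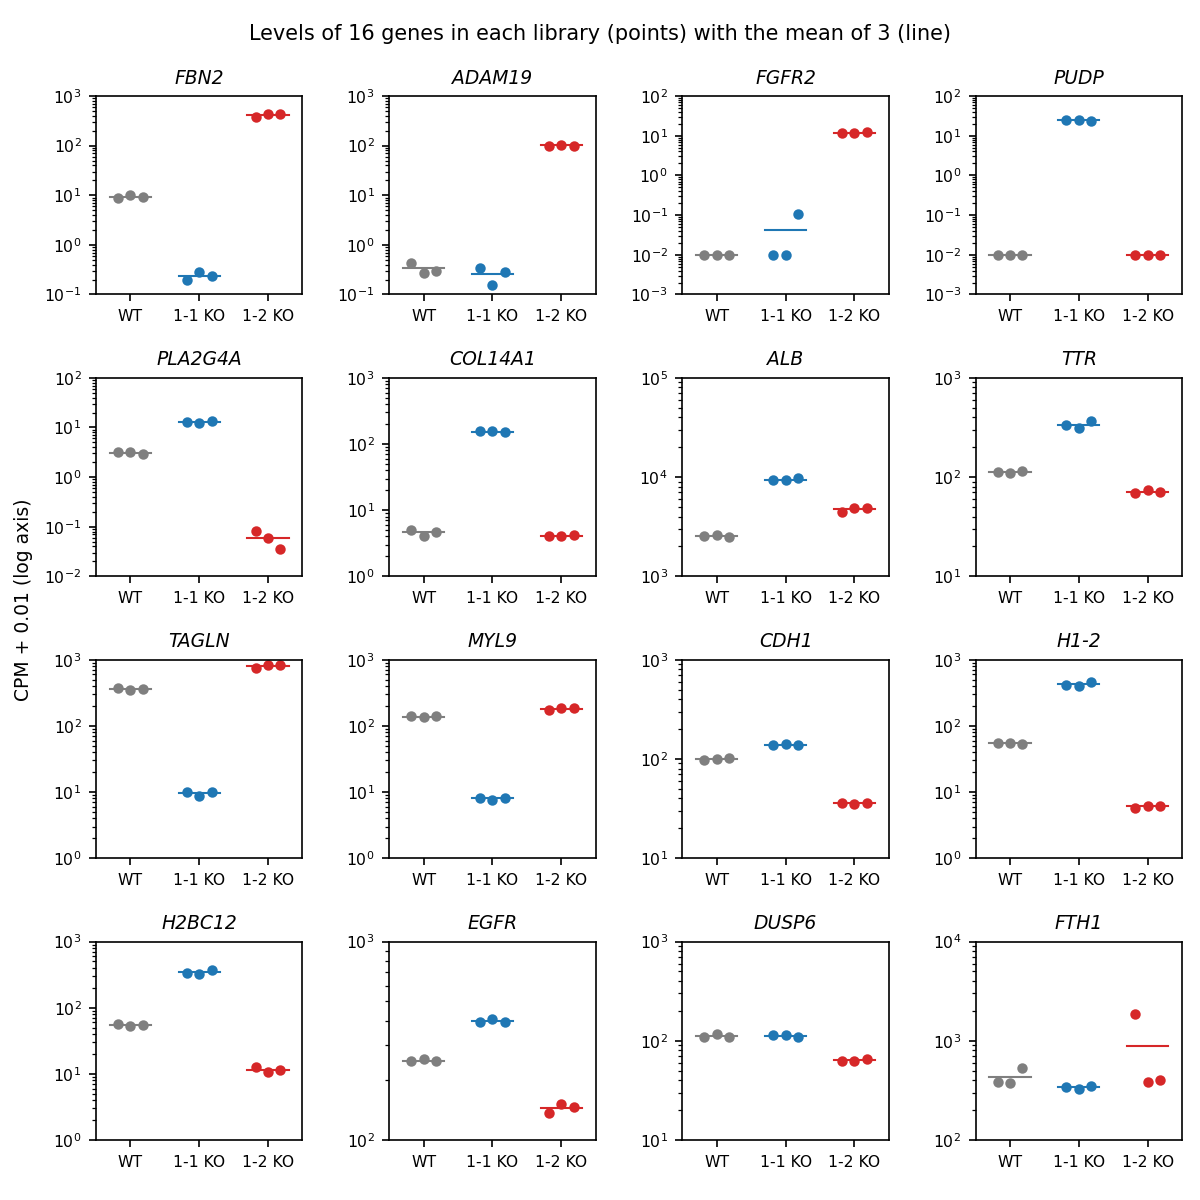
Levels of 16 genes in each library (points, CPM plus 0.01 on a log axis) with the mean of the 3 libraries of a line (horizontal line), for the WT line and both knockouts. Points within a line lie close together except for FTH1, whose high value belongs to replicate 1 of 1-2 KO, and the order of the 3 lines changes from gene to gene.

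Counting such genes, 57 were at 3 counts or fewer in every 1-1 KO library and at 1 CPM or more on average in 1-2 KO, and 7 were at the floor in 1-2 KO and expressed in 1-1 KO. Of the 57 genes, 50 were protein coding, 15 had no count in any 1-1 KO library, 29 were at the floor in WT as well, and 8 reached 1 CPM in WT. Chosen from these after their values were seen were the stem cell factor SOX2, the matrix glycoprotein TNC and the ephrin ligand EFNA5. SOX2 had 2, 2 and 0 counts in 1-1 KO, 339, 266 and 243 counts in 1-2 KO and 7, 8 and 8 in WT. TNC had 0, 1 and 0, 244, 221 and 235 and 40, 24 and 25 counts in the same order, and EFNA5 was at 0 in 1-1 KO, with 174, 156 and 164 counts in 1-2 KO and 1, 0 and 1 in WT. The 7 genes at the floor in 1-2 KO comprised PUDP, PLA2G4A, OR2W6P, the complement component C7, C2CD4A and 2 long noncoding RNAs without a symbol. With a level of 2 CPM required in the expressing line, the numbers were 33 and 3. No 3 neighbouring genes were at the floor together in either line.

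The 6 most abundant genes per direction that differed by over 1 on the log2 scale were MYH9, FLNA, NES, CSRP1, FTH1 and TAGLN on the side of 1-2 KO and NTS, FGA, FGG, A2M, RRBP1 and HMGCS1 on the side of 1-1 KO. MYH9, the heavy chain of nonmuscle myosin, was at 1132, 1175 and 1114 CPM in 1-1 KO, 2539, 2618 and 2606 CPM in 1-2 KO and 2289, 2251 and 2460.0 CPM in WT. FLNA, which crosslinks actin filaments, was at 995 ± 21.7, 2639 ± 57.8 and 2551 ± 150.3 CPM in the same order, and the intermediate filament nestin (NES) at 502 ± 17.0, 1538 ± 44.1 and 1930.0 ± 141 CPM. CSRP1 was 2.58-fold higher in 1-2 KO (log2 fold change 1.37 ± 0.04 SE, adjusted p = 1.33e-12). Against WT, the log2 fold change of MYH9, FLNA and CSRP1 was -1.03, -1.36 and -1.10 in 1-1 KO, compared to 0.15, 0.05 and 0.27 in 1-2 KO. FTH1, the heavy chain of the iron store ferritin, was at 343, 327 and 353 CPM in 1-1 KO and 1863, 384 and 398 CPM in 1-2 KO. Its difference rested on replicate 1 of 1-2 KO, since the adjusted p of 0.0141 became 0.0994 without that replicate, with a log2 fold change of 0.20. FTH1 has near-identical pseudogenes, and how reads with several matches were counted is not given in the sources used here.
On the other side, the peptide neurotensin (NTS) was at 4079, 3991 and 3921 CPM in 1-1 KO, 877, 921 and 894 CPM in 1-2 KO and 1098, 1235 and 1081 CPM in WT, 4.45-fold lower in 1-2 KO (log2 fold change -2.15 ± 0.05 SE, adjusted p = 1.48e-13). Fibrinogen chains were lower in 1-2 KO, with FGA at 1615 ± 9.35 CPM in 1-1 KO, 565 ± 27.2 CPM in 1-2 KO and 1109 ± 10.3 CPM in WT, and FGG at 1401 ± 20.6, 532 ± 30.6 and 1017 ± 44.8 CPM. The protease inhibitor A2M was 2.64-fold lower and the ribosome-binding protein of the endoplasmic reticulum RRBP1 2.63-fold lower in 1-2 KO. In NTS, FGA, FGG, A2M and RRBP1, 1-1 KO lay above WT and 1-2 KO below it.

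Gene lists were compared next, where counts of members stand beside 33.1% higher and 32.2% lower in 1-2 KO over all tested genes. Counts near these shares do not set a list apart from all genes. Genes of plasma proteins, which a hepatocyte secretes into the blood, came first. In each of their lists, members lower in 1-2 KO than in 1-1 KO outnumbered the higher ones. The margin was narrow for the carriers, the complement genes and the acute phase genes. All 4 tested genes of the albumin family were lower, where their median log2 fold change was -0.94 compared to 0.01 over all genes. Albumin (ALB) was at 9283, 9292 and 9707 CPM in 1-1 KO, 4416, 4907 and 4893 CPM in 1-2 KO and 2526, 2589 and 2479 CPM in WT. Both knockouts thus lay above WT without overlap, and the difference between them was 1.99-fold (log2 fold change -0.99 ± 0.04 SE, adjusted p = 1.24e-10). Transthyretin (TTR), a carrier of thyroid hormone, was at 334, 309.8 and 364 CPM in 1-1 KO, 69.1, 74.7 and 70.8 CPM in 1-2 KO and 111, 109 and 114 CPM in WT. Unlike ALB, TTR was lower in 1-2 KO than in WT. Of the 9 tested carriers, 2 were higher and 4 lower in 1-2 KO, and the copper carrier CP was among the higher ones at 1.44-fold. Of 16 apolipoprotein genes, 2 were higher and 10 lower, and the median log2 fold change was -0.48. APOM, carried on high-density lipoprotein, was 1.99-fold lower and APOC1 1.57-fold lower, whereas APOC3, an inhibitor of lipoprotein clearance, was 1.63-fold higher. The higher level of APOA2 (1.11-fold, log2 fold change 0.15 ± 0.06 SE, adjusted p = 0.037) was the other exception.
Of 26 genes of coagulation and fibrinolysis, 8 were higher and 15 lower in 1-2 KO, with a median of -0.29. Prothrombin (F2) was 1.32-fold higher at 196 ± 5.01 compared to 149 ± 1.78 CPM. Of 28 complement genes, 9 were higher and 12 lower, with a median of -0.10. C3, the central component, was at 487 ± 3.39 CPM in 1-1 KO and 695 ± 26.5 CPM in 1-2 KO. SERPING1, an inhibitor of the classical pathway, was 1.54-fold higher, whereas C6 was 4.64-fold lower and the lectin pathway protease MASP1 1.94-fold lower. Of 15 acute phase and protease inhibitor genes, 5 were higher and 7 lower. The orosomucoids ORM1 and ORM2 were 2.27-fold and 2.46-fold higher, and these paralogs can share reads. Haptoglobin (HP) was 4.43-fold lower, at 1.26 ± 0.162 compared to 5.60 ± 0.0440 CPM.

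Of 39 hepatocyte transcription factors, 14 were higher and 20 lower in 1-2 KO, with a median of -0.19. HNF4A, a main regulator of hepatocyte genes, was 1.20-fold higher in 1-2 KO (log2 fold change 0.26 ± 0.04 SE, adjusted p = 6.03e-05). ONECUT2 was 1.78-fold and the nuclear receptor PPARG 1.61-fold higher. The bile acid receptor NR1H4 (FXR) was at 41.97, 42.5 and 42.9 CPM in 1-1 KO, 21.4, 20.8 and 22.3 CPM in 1-2 KO and 60.5, 65.8 and 62.0 CPM in WT, so that both knockouts lay below WT and 1-2 KO the lower. ZHX2, a repressor of fetal liver genes, was 2.02-fold lower.
Enzymes of drug metabolism were mostly lower in 1-2 KO, with 1 higher and 13 lower of 19 cytochrome P450 genes (median -0.51) and 14 higher and 28 lower of 49 conjugating and other enzymes (median -0.33). AKR1C1, a reductase of steroids and xenobiotics, was at 125 ± 2.67 CPM in 1-1 KO, 37.0 ± 1.85 CPM in 1-2 KO and 179.9 ± 5.24 CPM in WT. ALDH1A1, which makes retinoic acid, was 1.93-fold lower. The glucuronosyltransferases UGT2B11 and UGT2B4 were 4.55-fold and 2.08-fold higher, and these paralogs can share reads. Of 29 genes of bile acid synthesis and transport, 7 were higher and 17 lower with a median of -0.53. The transporter SLCO2B1 was 2.94-fold and the oxysterol hydroxylase CYP39A1 3.20-fold lower. CYP7B1, of the alternative route of bile acid synthesis, was at 0.378, 0.365 and 0.343 CPM in 1-1 KO, 5.03, 5.37 and 5.34 CPM in 1-2 KO and 0.427, 0.373 and 0.349 CPM in WT. Its level in 1-2 KO was 14.5-fold that of 1-1 KO, which overlapped WT. The lipid flippase ATP8B1 was 2.00-fold higher.
Genes of cholesterol synthesis and uptake divided, 7 higher and 13 lower of 26 with a median of -0.09. HMGCS1, of the mevalonate pathway, was at 1479, 1468 and 1526 CPM in 1-1 KO, 586, 644 and 633 CPM in 1-2 KO and 782, 789 and 779 CPM in WT. MSMO1, a later enzyme, was 1.59-fold lower, and PMVK and FDPS were 1.54-fold and 1.29-fold higher. Of 51 genes of fatty acid metabolism, 19 were higher and 23 lower. CPT1A, which controls entry of fatty acids into mitochondria, was 1.77-fold and the desaturase FADS1 1.68-fold higher, while the hepatic lipase LIPC was 2.76-fold lower. Glycolytic genes were mostly lower, 2 higher and 16 lower of 26 with a median of -0.27. PFKM was 2.00-fold lower and GAPDH 1.28-fold lower, whereas the hexokinase HK1 was 4.90-fold higher at 6.38 ± 0.399 CPM. PFKFB4 was 1.15-fold higher (log2 fold change 0.21 ± 0.07 SE, adjusted p = 0.0229).

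**Figure D3:**
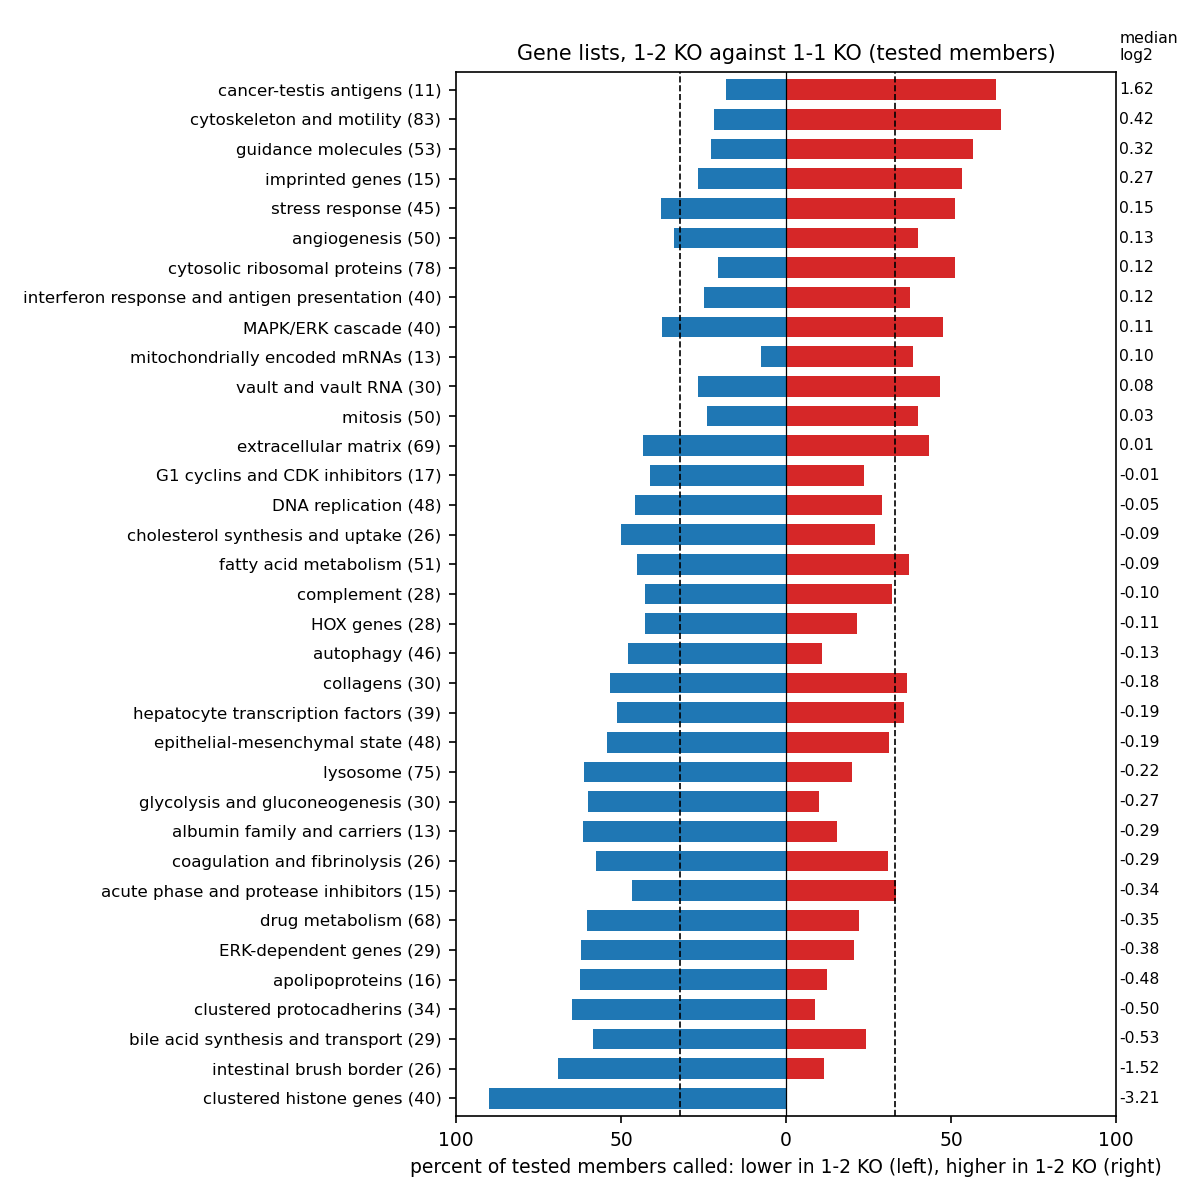
Percentage of the tested members of 35 gene lists (number tested in brackets) that were called lower (blue, to the left) or higher (red, to the right) in 1-2 KO compared to 1-1 KO, ordered by the median log2 fold change printed at the right. Dashed lines mark the 33.1% higher and 32.2% lower over all tested genes, and the list of clustered histone genes has no member called higher.

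The receptors, kinases and targets of the MAPK/ERK cascade, which carries growth factor signals through RAS, RAF and MEK to ERK, were compared next. Of 40 genes of the cascade, 19 were higher and 15 lower in 1-2 KO, with a median of 0.11. Among the receptors, EGFR was at 395, 407 and 392 CPM in 1-1 KO, 137, 151 and 146 CPM in 1-2 KO and 249, 255 and 249.7 CPM in WT. Its libraries did not overlap between lines, and it was 2.75-fold lower in 1-2 KO (log2 fold change -1.46 ± 0.04 SE, adjusted p = 7.8e-13). PDGFRA was 5.84-fold lower at 3.68 ± 0.335 CPM. FGFR2, described above, was at 11.5, 11.3 and 12.1 CPM in 1-2 KO. The adaptor SHC1 was 2.14-fold higher, at 97.9 ± 1.78 CPM in 1-1 KO and 209.8 ± 6.36 CPM in 1-2 KO. Genes whose transcription follows ERK activity were mostly lower in 1-2 KO than in 1-1 KO, with 6 higher and 18 lower of 29 and a median of -0.38. Against WT, 16 were higher and 3 lower in 1-1 KO (median 0.24), and 13 higher and 7 lower in 1-2 KO (median 0.14). Of all tested genes, 32.5% were higher and 30.9% lower than WT in 1-1 KO, and 28.2% and 26.2% in 1-2 KO. Of 11 feedback inhibitors, 3 were higher and 7 lower in 1-2 KO than in 1-1 KO, with a median of -0.81. Their median against WT was 0.33 in 1-1 KO and 0.002 in 1-2 KO. DUSP6, a phosphatase of ERK, was at 113, 114 and 110.0 CPM in 1-1 KO, 63.0, 63.2 and 66.0 CPM in 1-2 KO and 109.5, 116 and 110.2 CPM in WT, so that only 1-2 KO departed from WT. The nuclear ERK phosphatase DUSP5 was 2.34-fold lower, with 1-1 KO above WT and 1-2 KO below it. DUSP1 was 1.21-fold and SPRED1, an inhibitor of RAS signalling, 1.504-fold higher. These are mRNA levels, and phosphorylation was not measured in these libraries.
Of 50 angiogenesis genes, which act on vessel growth, 20 were higher and 17 lower in 1-2 KO, with a median of 0.13. CXCL8, an angiogenic chemokine, was at 58.4, 61.5 and 60.2 CPM in 1-1 KO, 181, 204 and 203 CPM in 1-2 KO and 122.9, 141 and 128 CPM in WT. The inhibitor TIMP3 was 3.28-fold higher, whereas the matrix protease ADAMTS1 was 2.83-fold and the hypoxia factor EPAS1 1.87-fold lower. VEGFA, the main growth factor of endothelial cells, was at 67.6, 68.9 and 66.8 CPM in 1-1 KO, 55.5, 52.2 and 56.6 CPM in 1-2 KO and 59.8, 54.3 and 53.6 CPM in WT. It was 1.24-fold lower in 1-2 KO (log2 fold change -0.31 ± 0.05 SE, adjusted p = 4.71e-05), and of the knockouts, 1-1 KO departed from WT. Of 53 guidance molecules, which steer axons and vessels, 30 were higher and 12 lower, with a median of 0.32. Besides EPHA7, the slit receptor ROBO1 was 2.00-fold higher, while the plexin PLXNC1 was 1.63-fold and the ephrin receptor EPHA5 1.86-fold lower.

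Autophagy degrades cell contents in lysosomes, and p62, the product of SQSTM1, is its receptor known to bind vtRNA1-1. SQSTM1 was at 304, 307 and 302 CPM in 1-1 KO and 389.5, 294 and 314 CPM in 1-2 KO, and the knockouts overlapped. It did not pass the test (log2 fold change 0.13 ± 0.07 SE, adjusted p = 0.15), and without replicate 1 of 1-2 KO the log2 fold change was -0.001068. Of 46 autophagy genes, 5 were higher and 22 lower in 1-2 KO, and 19 were not called. The ATG8 protein GABARAPL1 was at 61.5 ± 2.07 CPM in 1-1 KO, 25.8 ± 1.21 CPM in 1-2 KO and 31.2 ± 1.07 CPM in WT, and the phagophore protein WIPI2 was 1.64-fold lower. ULK2, a kinase that starts autophagy, was 2.29-fold and the receptor OPTN 1.36-fold higher. Their median log2 fold change was -0.13.
Lysosomal genes were mostly lower, with 15 higher and 46 lower of 75 and a median of -0.22. The transporter of sialic acid SLC17A5 was 2.09-fold and the sialidase NEU1 1.89-fold lower. The V-ATPase subunit ATP6V0E2 was 4.56-fold higher and cathepsin H (CTSH) 1.93-fold higher. Cathepsin D (CTSD) was at 147, 145 and 140.4 CPM in 1-1 KO, 93.9, 87.9 and 90.3 CPM in 1-2 KO and 116, 129 and 169.8 CPM in WT, so that 1-2 KO was lower than both lines while WT varied by itself. The chloride transporter CLCN7 was 1.20-fold lower. TFEB, the transcription factor of lysosome genes, was at 1.39, 1.39 and 1.96 CPM in 1-1 KO and 1.61, 1.63 and 1.17 CPM in 1-2 KO, and LAMP1 at 205, 202 and 208 and 197, 199.9 and 193 CPM. TFEB (adjusted p = 0.643) and LAMP1 (adjusted p = 0.158) did not pass the test between the knockouts. ATP6V0D2 reached at most 0.347 CPM in any library and was not tested.

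Genes of the actin cytoskeleton and of motility had the highest median among the lists of over 30 tested genes, 0.42 with 54 genes higher and 18 lower of 83. Of 39 actin and myosin genes, 28 were higher and 6 lower in 1-2 KO, and their median log2 fold change was 0.58. Against WT, 5 were higher and 32 lower in 1-1 KO, with a median of -0.58, where 32.5% of all tested genes were higher and 30.9% lower. In 1-2 KO, 13 were higher and 14 lower than WT, with a median of -0.01, where 28.2% of all tested genes were higher and 26.2% lower. TAGLN, a calponin-like protein of smooth muscle, was at 10.00, 8.63 and 9.83 CPM in 1-1 KO, 754, 838 and 819.8 CPM in 1-2 KO and 374, 347 and 365 CPM in WT. The lines lay far apart, 1-1 KO below and 1-2 KO above WT, and the difference between the knockouts was 84.8-fold (log2 fold change 6.41 ± 0.07 SE, adjusted p = 6.51e-17). MYL9, a regulatory light chain of myosin, was at 8.20, 7.66 and 8.16 CPM in 1-1 KO, 171, 185 and 185 CPM in 1-2 KO and 139.8, 135 and 140.0 CPM in WT. Smooth muscle actins followed, with ACTA2 at 0.0807 ± 0.0379 CPM in 1-1 KO, 6.26 ± 0.657 CPM in 1-2 KO and 2.78 ± 0.491 CPM in WT. ACTG2, chosen after its values were seen because its promoter is shown, was at 0.0473, 0.146 and 0.0490 CPM in 1-1 KO, 5.39, 6.48 and 5.44 CPM in 1-2 KO and 17.0, 14.5 and 15.9 CPM in WT. Unlike TAGLN, ACTG2 was lower than WT in both knockouts. The actin-capping protein CAPG was 2.45-fold lower in 1-2 KO.
Genes of contraction are known targets of serum response factor, which binds the CArG box, an A/T-rich motif between a pair of C and a pair of G. The motif was searched on both strands in the 250 bases before the start of each gene in RefSeq (GRCh38.p14). It was present in 407 of 35116 promoters (1.16%) and in 6 of the 32 actin and myosin genes with a promoter in the table (18.8%), ACTG1, ACTG2, CNN2, FLNA, MYLK and TPM4. The 35116 promoters were not limited to tested genes or to 1 promoter per gene, whereas those of the list were. The promoters of TAGLN and MYL9 were not analysed here. The ACTG2 promoter is shown as an example, on the plus strand at chr2:73892758-73893007, with the 2 CArG boxes in capitals.
ACTG2: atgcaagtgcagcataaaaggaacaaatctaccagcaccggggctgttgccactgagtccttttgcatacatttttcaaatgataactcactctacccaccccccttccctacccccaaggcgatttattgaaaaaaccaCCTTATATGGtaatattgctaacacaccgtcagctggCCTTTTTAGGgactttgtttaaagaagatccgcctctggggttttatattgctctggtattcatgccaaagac
The boxes began 110 and 73 bases before the gene start. A match describes the letters and was not tested for binding.

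**Figure D4:**
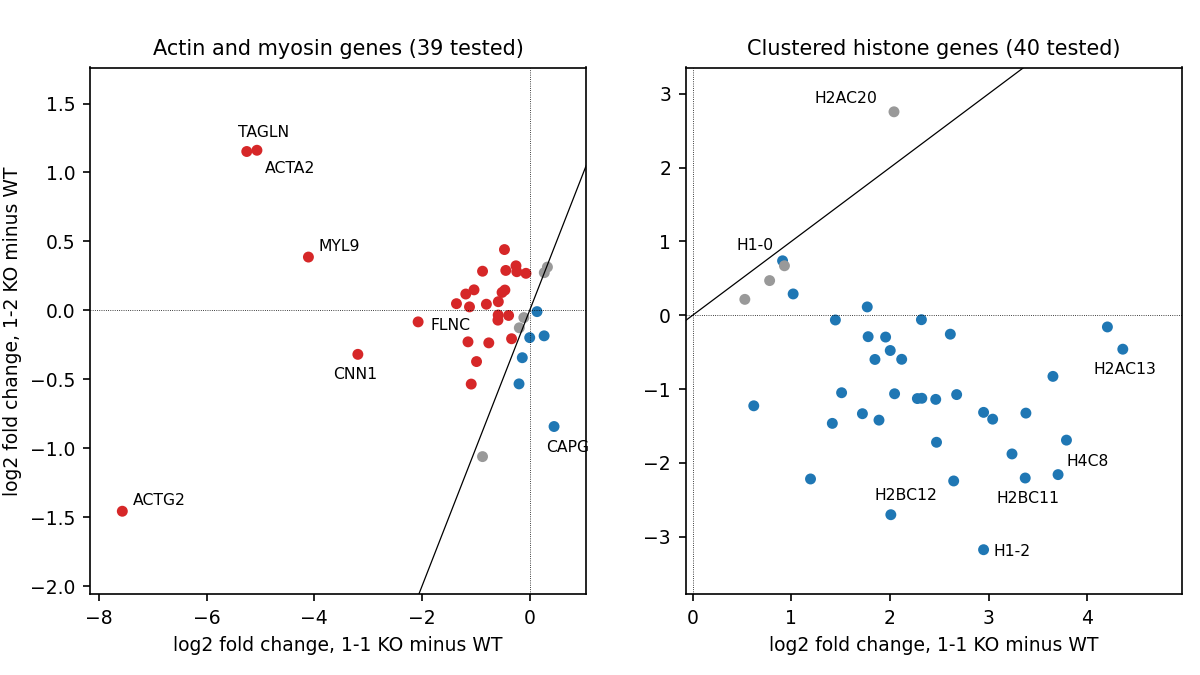
Log2 fold change from WT in 1-1 KO (x axis) and in 1-2 KO (y axis) for the 39 tested actin and myosin genes (left) and the 40 tested clustered histone genes (right). Red points were called higher in 1-2 KO than in 1-1 KO, blue points lower and grey points neither, and the line marks equal departure from WT. Most actin genes lie above the line with 1-1 KO below 0, and most histone genes lie below it with 1-1 KO above 0 and 1-2 KO below 0.

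Epithelial genes were mostly lower and mesenchymal genes mostly higher in 1-2 KO than in 1-1 KO. Of 30 epithelial genes, 5 were higher and 21 lower, with a median of -0.87. Of 18 mesenchymal genes, 10 were higher and 5 lower, with a median of 0.40. Against WT, 21 epithelial genes were higher and 5 lower in 1-1 KO (median 0.46), and 9 higher and 13 lower in 1-2 KO (median -0.10). Mesenchymal genes were 6 higher and 9 lower than WT in 1-1 KO (median -0.24), and 7 and 7 in 1-2 KO (median 0.02). Of all tested genes, 32.5% were higher and 30.9% lower than WT in 1-1 KO, and 28.2% and 26.2% in 1-2 KO. CDH1 (E-cadherin), which joins epithelial cells, was at 138, 139.9 and 137 CPM in 1-1 KO, 36.2, 35 and 35.6 CPM in 1-2 KO and 96.8, 99.5 and 102 CPM in WT. The lines did not overlap, and CDH1 was 3.89-fold lower in 1-2 KO (log2 fold change -1.96 ± 0.04 SE, adjusted p = 1.33e-14). The keratin KRT23 was 8.53-fold lower, at 7.92 ± 0.296 compared to 67.6 ± 0.280 CPM. SERPINE2, a protease inhibitor of the matrix, was 12.6-fold higher, at 84.8 ± 1.74 CPM compared to 6.71 ± 0.274 CPM in 1-1 KO and 51.7 ± 0.610 CPM in WT. The activin subunit INHBE was 3.42-fold higher.
Extracellular matrix genes divided evenly, 30 higher and 30 lower of 69, with a median of 0.01 that became -0.10 without replicate 1 of 1-2 KO. FBN2 and ADAM19 led the higher members, and the proteoglycans VCAN (2.90-fold) and LUM (3.32-fold) were lower. VCAN was at 44.7 ± 0.459 CPM in 1-2 KO, 129.5 ± 1.41 CPM in 1-1 KO and 271 ± 9.17 CPM in WT, with both knockouts below WT. Of 30 collagen genes, 11 were higher and 16 lower, and single genes differed widely. COL14A1 was at 155, 158 and 150.3 CPM in 1-1 KO, 4.04, 4.04 and 4.17 CPM in 1-2 KO and 5.08, 4.11 and 4.60 CPM in WT, so that only 1-1 KO departed from WT. The cartilage collagen COL2A1 was at 384 ± 13.9, 43.96 ± 2.43 and 9.70 ± 1.17 CPM in the same order, with both knockouts above WT. COL11A1 was 46.9-fold higher in 1-2 KO, at 17.7 ± 0.545 CPM, and COL7A1 4.70-fold higher.
Clustered protocadherins, adhesion molecules of neurons encoded beside the VTRNA1 genes, were higher than in WT in 28 of 34 genes in 1-1 KO and in 24 in 1-2 KO, and none was lower than WT in either line. Over all tested genes, 32.5% were higher and 30.9% lower than WT in 1-1 KO, and 28.2% higher and 26.2% lower in 1-2 KO. Between the knockouts, 3 were higher and 22 lower in 1-2 KO, with a median of -0.50. Of the beta genes 0 were higher and 12 lower of 13, and of the gamma genes 3 were higher and 8 lower of 18. PCDHB5 was at 44.9, 47.9 and 45.4 CPM in 1-1 KO, 30.3, 30.2 and 28.1 CPM in 1-2 KO and 19.8, 19.4 and 21.5 CPM in WT. PCDHGA2 was 3.52-fold lower in 1-2 KO, whereas PCDHGB1 was 1.71-fold and PCDHGB6 1.47-fold higher. The alpha and the gamma genes share their last exons within a cluster, and reads from these exons cannot be assigned to 1 gene.

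Clustered histone genes encode the histones made during DNA replication, and most of their mRNAs end in a stem-loop in place of a poly(A) tail. Of 40 tested genes, 0 were higher and 36 lower in 1-2 KO, and the median log2 fold change was -3.21, or -2.97 when genes at the floor took the value of their bound. Against WT, 37 were higher and 0 lower in 1-1 KO (median 2.08), and 3 were higher and 21 lower in 1-2 KO (median -1.07), beside 32.5% higher and 30.9% lower of all tested genes in 1-1 KO and 28.2% and 26.2% in 1-2 KO. The linker histone H1-2 was at 416, 393 and 455 CPM in 1-1 KO, 5.75, 6.23 and 6.16 CPM in 1-2 KO and 54.3, 55.8 and 53.8 CPM in WT. The lines did not overlap, and H1-2 was 69.7-fold lower in 1-2 KO (log2 fold change -6.12 ± 0.06 SE, adjusted p = 6.51e-17). H2BC12 was at 338, 325 and 367 CPM in 1-1 KO, 12.6, 10.8 and 11.3 CPM in 1-2 KO and 56.8, 52.4 and 55.4 CPM in WT. H4C8 was 58.4-fold lower, at 0.493 ± 0.0769 CPM compared to 28.8 ± 0.0512 CPM. Near-identical histone genes can share reads, and mRNA libraries hold little of the transcripts without a poly(A) tail, so that the counts measure the part that the preparation retained. Whether the level or the tail of the transcripts differed was not tested.
Histone promoters commonly hold a TATA box and CCAAT boxes. Searched on both strands in the same 250 bases, TATAAA was present in 24 of 38 histone promoters (63.2%) and in 10.7% of all promoters, and CCAAT in 31 of 38 (81.6%) and in 32.0% of all. Here too, only the histone promoters were limited to tested genes and to 1 promoter per gene. The H2BC11 promoter is shown because H2BC11, chosen after its values were seen, was at 29.9, 29.9 and 32.0 CPM in 1-1 KO, 0.783, 0.653 and 0.474 CPM in 1-2 KO and 2.86, 2.72 and 3.33 CPM in WT. It lies on the minus strand at chr6:27132796-27133045, with the 7 matches of TATAAA or CCAAT on either strand in capitals, of which some overlap.
H2BC11: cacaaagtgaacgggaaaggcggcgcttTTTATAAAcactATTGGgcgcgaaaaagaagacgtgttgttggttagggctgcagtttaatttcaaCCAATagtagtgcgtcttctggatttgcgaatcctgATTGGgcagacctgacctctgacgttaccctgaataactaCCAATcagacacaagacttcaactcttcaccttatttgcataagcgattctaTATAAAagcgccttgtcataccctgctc
Of 48 genes of DNA replication, 14 were higher and 22 lower, with a median of -0.05. CCNE1, the cyclin of S phase entry, was 1.97-fold and the polymerase POLE 1.70-fold higher in 1-2 KO, while the thymidine kinase TK1 was 1.63-fold and E2F2 2.14-fold lower. Of 50 mitosis genes, 20 were higher and 12 lower, with a median of 0.03. HMMR was 1.49-fold and CKS1B 1.46-fold higher, and the kinetochore proteins CENPE and NDC80 were 2.13-fold and 1.59-fold lower. Of 17 G1 cyclins and CDK inhibitors, 4 were higher and 7 lower. The inhibitor CDKN1A (p21) was at 10.9, 11.0 and 10.52 CPM in 1-1 KO, 3.73, 4.04 and 3.67 CPM in 1-2 KO and 9.42, 9.71 and 11.8 CPM in WT, so that only 1-2 KO departed from WT. CDKN2B (p15) was 2.92-fold lower, and the kinase CDK6 was 1.69-fold and RBL1 1.62-fold higher.

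Genes of the intestinal brush border, which hepatoma cells can express, were lower in 1-2 KO, with 3 higher and 18 lower of 26 and a median of -1.52. CDH17 was at 103, 103 and 105 CPM in 1-1 KO, 23.1, 25.3 and 25.5 CPM in 1-2 KO and 10.5, 10.9 and 10.4 CPM in WT, and the peptidase DPP4 was 3.08-fold lower. Villin (VIL1) was 1.89-fold higher, with 1-1 KO at 445 ± 4.56 CPM, 1-2 KO at 840.5 ± 35.1 CPM and WT at 984 ± 32.6 CPM. The carbonic anhydrase CA4 was 1.72-fold higher and held at most 1 count in each WT library. Cancer-testis antigens, genes of the germline that tumours can express, were higher for 7 and lower for 2 of 11 in 1-2 KO. The other 29 of the 40 genes on the list were too low to test. The count filter could keep a gene through 1 line alone, as it kept MAGEA3 through 1-2 KO. The direction of these calls is thus partly set by the filter. MAGEA3 had 0, 0 and 1 counts in 1-1 KO, 223, 223 and 210 counts in 1-2 KO and 1, 0 and 2 in WT. MAGEA6 was at 9.10 ± 0.356 CPM in 1-2 KO and 0.145 ± 0.0403 CPM in 1-1 KO, and these near-identical paralogs can share reads. The helicase DDX43 was 5.87-fold lower. MAGEB1 had 14, 20 and 19 counts in WT, 1, 3 and 0 in 1-1 KO and 0 in each 1-2 KO library, and the knockouts did not differ by the test (adjusted p = 0.0845). ZSCAN31 had 30, 19 and 24 counts in 1-1 KO, 1, 0 and 0 in 1-2 KO and 24, 40 and 30 in WT.
Of 28 HOX genes, which set position along the body axis, 6 were higher and 12 lower, with a median of -0.11. HOXA11 was 5.71-fold and HOXA7 3.18-fold lower, and HOXC12 was 2.83-fold higher. Of 15 imprinted genes, 8 were higher and 4 lower. GRB10, an adaptor of insulin signalling, was 1.79-fold and MAGEL2 1.84-fold higher, and BLCAP was 1.51-fold and PEG10 1.17-fold lower.
Interferon response genes were called near the shares of all tested genes (33.1% higher and 32.2% lower), with 9 higher and 8 lower of 26. Of 14 antigen presentation genes, 6 were higher and 2 lower. OAS3, which makes oligoadenylates on sensing double-stranded RNA, was at 20.7, 22.7 and 19.9 CPM in 1-1 KO, 47.5, 48.9 and 49.1 CPM in 1-2 KO and 8.24, 8.59 and 8.65 CPM in WT, with both knockouts above WT. IFITM2 was 3.08-fold higher, and MX2 was 1.41-fold lower. Of 28 genes of the unfolded protein and integrated stress response, 18 were higher and 7 lower, with a median of 0.33, and the folding enzyme PDIA4 was 1.79-fold higher. Of 17 NRF2 targets and metallothioneins, 5 were higher and 10 lower, with a median of -0.25. The quinone reductase NQO1 was at 1041 ± 58.9 CPM in 1-1 KO, 568 ± 7.56 CPM in 1-2 KO and 1026 ± 6.90 CPM in WT, and the metallothioneins moved apart, MT1G being 3.26-fold higher and MT1X 2.42-fold lower.
Cytosolic ribosomal protein genes were higher for 40 and lower for 16 of 78, with a median of 0.12. RPLP0 was 1.61-fold and RPS14 1.67-fold higher, while RPL37 (1.86-fold) and RPL36AL (1.72-fold) were lower. Of 13 mRNAs encoded by mitochondrial DNA, 5 were higher and 1 lower. MT-CO1 was at 3789, 3459 and 3682 CPM in 1-1 KO, 5086, 5277 and 5736 CPM in 1-2 KO and 5618, 4858 and 4223 CPM in WT, and MT-ND1 was 1.48-fold higher. MT-ND3 was the lower one, at 1.08-fold (log2 fold change -0.11 ± 0.04 SE, adjusted p = 0.016).

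Genes of the vault particle, of vault RNA partners and of RNA polymerase III with its factors differed by small amounts. Of 30 genes, 14 were higher and 8 lower in 1-2 KO, none by over 1 on the log2 scale, with a median of 0.08. All 7 tested genes of the vault particle and of vault RNA partners were called, 5 higher and 2 lower, where 65.3% of all tested genes were called. The vault's telomerase-associated protein TEP1 was at 41.3, 41.2 and 42.4 CPM in 1-1 KO, 20.9, 22.4 and 21.7 CPM in 1-2 KO and 25.7, 24.0 and 23.5 CPM in WT, 1.92-fold lower in 1-2 KO. Of 23 genes of RNA polymerase III and its factors, 9 were higher and 6 lower. The subunit POLR3E was 1.66-fold and the factor GTF3A 1.26-fold higher, and MAF1, the repressor of this polymerase, was 1.496-fold lower. MAF1 was at 50.2, 54.4 and 50.7 CPM in 1-1 KO, 37.3, 32.5 and 34.0 CPM in 1-2 KO and 35.5, 35.2 and 35.7 CPM in WT, so that 1-1 KO was the line that departed from WT.

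Markers of other liver and blood cells were measured as a check of the lines. Cholangiocyte markers summed to 560.6 to 571.4 CPM in 1-1 KO, 544.5 to 638.2 CPM in 1-2 KO and 381.0 to 419.8 CPM in WT. EPCAM was 2.99-fold, SOX9 1.83-fold and CFTR 1.91-fold lower in 1-2 KO, and SPP1 was 2.85-fold higher. KRT19 was at 283, 275 and 278 CPM in 1-1 KO and 335, 234 and 232 CPM in 1-2 KO and was not called (adjusted p = 0.63). KRT7 had 1, 1 and 1 counts in 1-1 KO and 3, 6 and 4 in 1-2 KO. Stellate cell and fibroblast markers summed to 284.2 to 297.8 CPM in 1-1 KO, 127.6 to 137.1 CPM in 1-2 KO and 190.9 to 202.7 CPM in WT. LUM made 206 ± 5.57, 62.1 ± 2.25 and 157.4 ± 5.96 CPM of these sums. COL1A2 was 1.69-fold lower, COL3A1 1.62-fold higher and ACTA2 77.6-fold higher in 1-2 KO than in 1-1 KO. Of the 7 tested markers of this list, 3 were higher and 2 lower, with a median of 0.26. The lower sum in 1-2 KO thus did not hold for the markers as a set. Endothelial markers summed to at most 7.44 CPM in 1-1 KO, 1.37 CPM in 1-2 KO and 8.42 CPM in WT. KDR was at 0 in all lines, and PECAM1 was 7.95-fold lower in 1-2 KO than in 1-1 KO. STAB2 reached at most 0.285 CPM and was not called (adjusted p = 0.394). Leukocyte markers summed to 105.1 to 111.1 CPM in 1-1 KO, 22.3 to 23.6 CPM in 1-2 KO and 133.2 to 135.1 CPM in WT. LYZ made 102 ± 3.28, 19.2 ± 0.384 and 113.5 ± 0.33 CPM of these sums. MS4A1 was at 0 in all lines, and PTPRC, which all leukocytes express, reached at most 1.12 CPM in any library. CD14 was 1.61-fold lower, and CD3D was at 19.1 ± 0.609 CPM in WT, 3.53 ± 0.308 CPM in 1-1 KO and 0.759 ± 0.295 CPM in 1-2 KO. Neuronal markers summed to 37.5 to 38.3 CPM in 1-1 KO, 128.6 to 136.6 CPM in 1-2 KO and 90.8 to 95.3 CPM in WT. Of these sums, MAP2 made 2.81 ± 0.122, 59.1 ± 2.20 and 65.8 ± 1.77 CPM. Its log2 fold change against WT was -4.55 in 1-1 KO and -0.16 in 1-2 KO. RBFOX3 was at the floor in all lines. SNAP25 was 3.15-fold higher and SYT1 1.82-fold lower, and TUBB3 was not called (adjusted p = 0.28).

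The tested genes were also compared by chromosome. The median log2 fold change of 1-2 KO minus 1-1 KO was highest on chromosome 15 (0.30), where 322 genes were higher and 79 lower of 574, and on chromosomes 22 (0.26) and 20 (0.24). It was lowest on chromosome 21 (-0.25), where 19 were higher and 91 lower of 169, and on chromosomes 6 (-0.23), 14 (-0.20) and 19 (-0.19). Against WT, 1-1 KO departed on chromosome 21 (0.35), 19 (0.33), 14 (0.29) and 15 (-0.21), where 1-2 KO stayed between 0.05 and 0.14, and 1-2 KO departed on chromosome 6 (-0.27), where 1-1 KO was at 0.00042. Gene copy number was not measured in these libraries.
Within 5 Mb of VTRNA1-2, 49 of 111 tested genes were higher and 34 lower in 1-2 KO, with a median of 0.12. Of the 77 that are no clustered protocadherins, 46 were higher and 12 lower. The 18 of these within 0.5 Mb had 2 higher and 8 lower, with a median of -0.16. Protocadherins were left out by symbol only, so that the lower ones still include unnamed transcripts lying among the protocadherin beta genes. Of all tested genes 33.1% were higher and 32.2% lower, and of those on chromosome 5 41.9% and 28.9%.
PUDP and STS are neighbours on chromosome X, and PNPLA4, a gene beside them chosen after their values were seen, was also highest in 1-1 KO. The steroid sulfatase STS was at 7.87, 8.75 and 7.94 CPM in 1-1 KO, 0.0712, 0.100 and 0.0249 CPM in 1-2 KO and 0.0503, 0.133 and 0.190 CPM in WT. PNPLA4 was at 6.78, 6.08 and 7.43 CPM in 1-1 KO, 0.427, 0.527 and 0.549 CPM in 1-2 KO and 1.05, 1.57 and 0.983 CPM in WT. For PUDP and STS, the 1-1 KO libraries were the only ones above 1 CPM, and the WT cells, from which the 1-2 KO clone was made, overlapped that clone.

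**Figure D5:**
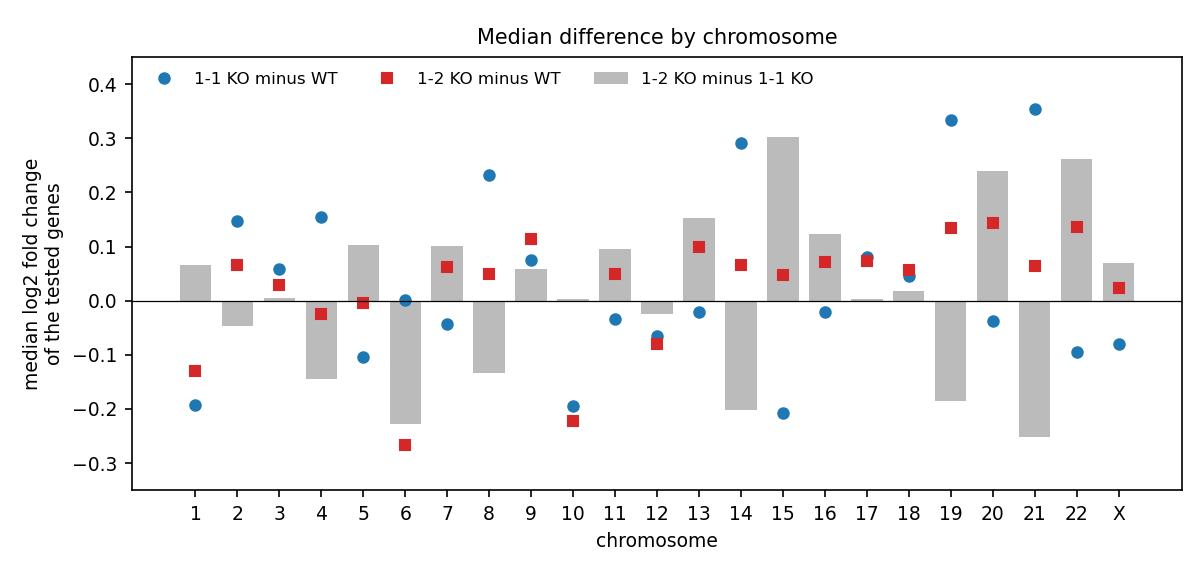
Median log2 fold change of the tested genes of each chromosome for 1-2 KO minus 1-1 KO (bars), 1-1 KO minus WT (blue circles) and 1-2 KO minus WT (red squares). The bars reach from -0.25 on chromosome 21 to 0.30 on chromosome 15.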

How the data were processed

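Poly(A) RNA of 3 libraries per line was prepared with a stranded kit and sequenced in pairs. Per the submitters' processing notes and the study's methods, the authors aligned reads to GRCh38 with STAR and deposited featureCounts read counts per Ensembl gene, not normalized. Strand and multiple-match settings of the counting are not given in the sources used here. Of 60664 genes, 60463 were named from GENCODE 44, and the other 201 held 0.0192% of counts. Total counts were 32384469 to 41782387 per library.

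Genes passing edgeR's filter (10 counts, 15 in total) were scaled by TMM and tested with the quasi-likelihood test of edgeR 4.0.16 (R 4.3.3) in 1 fit of all 9 libraries, with Benjamini-Hochberg adjustment over 17207 genes at 0.05. The script was tested on simulated data. Plots were drawn with matplotlib 3.10.9. The p-values measure the spread between RNA extractions of 1 line each. Each SE of a log2 fold change was the size of that change divided by the square root of the F statistic. It can be too small where 1 line has few counts. Counting intervals (95%) and the floor of 3 counts per library cover counting error only.

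Members and the 35 gene lists and 6 marker lists were chosen with earlier results of these data known. Named genes were those the study names, the 10 largest rises and falls between the knockouts (a mean of 1 CPM, libraries not overlapping), the 6 most abundant genes per direction past 1 on the log2 scale, and, per list, all members of lists of at most 6 tested genes or the 2 per direction with the smallest adjusted p. Other genes named are said to be chosen after their values were seen. Positions were compared per chromosome, since the annotation holds no arm boundaries. Alternatives were DESeq2 1.42.0, 2 other scalings, 2 other filters, a replicate block, the knockout libraries alone, other thresholds and leaving out each library. Some genes that this rule names are not reported here.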

Additional observations from a re-analysis of the deposited data

How the results depend on the processing

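The number of genes called between the knockouts was 11229, 10229 by the DESeq2 Wald test (5226 higher and 5003 lower) and 10426 to 11530 when each library was left out in turn. With at least 10 counts required in every library, 623 genes were higher and 715 lower by over 1 on the log2 scale, a filter that removes genes near 0 in 1 line. At a size of 0.58 the numbers were 2535 and 2513, and at a size of 2 they were 503 and 321. Genes called in neither line against WT numbered 1052 without a filter on low counts and 575 to 1089 when a library was left out, with 1072 without WT replicate 1 and 1089 without WT replicate 2. Genes called in both lines in the same direction numbered 1745 at an adjusted p under 0.01. Genes at the floor in 1-1 KO and in 1-2 KO numbered 31 and 1 with a floor of 1 count, 97 and 19 at 0.5 CPM in the other line, and 33 and 3 at 2 CPM, and with a floor of 5 counts 15 were at the floor in 1-2 KO. Over the libraries left out, the log2 fold change of 3 genes that did not pass the test changed sign, from -0.258 to 0.03001 for KRT19, from -0.001068 to 0.21 for SQSTM1 and from -0.1853 to 0.08334 for TFEB.

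With the replicate number as a block, 10923 genes were called, 5519 higher and 5404 lower. For each tested gene, the mean log2 level of a line was subtracted from the log2 level of each of its libraries. Correlations of these deviations between same-numbered libraries of different lines ranged from -0.353 to 0.182. The numbers were therefore not taken to pair the samples. Counts under 10 per library limit the ranking of genes near the floor, and the knockouts are 1 line each, so that differences between lines and effects of the deleted genes cannot be told apart.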
